A study of Rattus norvegicus with 15 samples.

Results

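RNA profiles of stressed rat astrocytes that had received MitoCoat were compared with those of unstressed astrocytes. The comparison takes 6 of the 15 samples of the study, namely the 3 samples of the MitoCoat group and the 3 of the control group, chosen by their group labels alone. It therefore spans H2O2 exposure, the time that followed it and the treatment in a single step. The 3 samples that received H2O2 without treatment are given beside it to show where the stress alone lay.

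Astrocytes are the glial cells that supply neurons with metabolites and antioxidants and that answer injury with broad shifts in gene expression. H2O2 is an oxidant that enters cells and damages lipids, proteins and DNA. Mitochondria carry a small circular genome that encodes ribosomal RNAs, transfer RNAs and a few subunits of the respiratory chain, while the nuclear genome encodes the other mitochondrial proteins. MitoCoat is a mitochondria-enriched fraction of rat placenta wrapped in the cationic lipid DOTAP and the fusogenic lipid DOPE, which help particles to reach the inside of cells. The fraction brings its own mitochondrial genomes and placental RNA, so that RNA of a treated well can come from the astrocytes or from the applied material.

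The cells were cultured from the cerebral cortex of wild-type Sprague Dawley rats aged 1 to 2 days, and microglia had been shaken off during culture. Control wells received water as vehicle for 30 min and no treatment, H2O2 wells received 100 µM H2O2 for 30 min and no treatment, and MitoCoat wells received the same H2O2 exposure and MitoCoat 24 h later. RNA was taken 6 h after the treatment. The series also holds 3 samples each of stressed cells given uncoated placental mitochondria (unmodified mitochondria) and of stressed cells given lipid-encapsulated RNA extracted from such mitochondria (MitoCoat-mRNA). No unstressed sample with MitoCoat was analysed here, so effects of H2O2 and of MitoCoat cannot be told apart from the 2 groups compared. The study calls the samples of a group biological replicates. The labels do not tie them to separate cultures or litters, and p-values measure the spread between these samples. The extraction label speaks of mitochondria-enriched fractions, whereas the study describes RNA of the astrocytes, which was assumed here.

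For each sample the authors deposited raw read counts on 32552 Ensembl genes of the Rnor6.0 assembly. Total counts ranged from 39311094 to 46778663 in the controls and from 38270874 to 42826709 with MitoCoat. CPM below are counts per 1000000 counts of the normalized library size of each sample. The genes are listed by Ensembl identifiers, and 0 of them matched the reference table at hand. Genes are therefore described by their position in Rnor6.0, and markers of astrocytes and of other cell types were not analysed here. In bulk RNA, fewer cells of a type and less RNA per cell cannot be told apart.

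MitoCoat samples differed from unstressed controls in many genes, in both directions. Of 15764 genes tested with edgeR's quasi-likelihood test, 3792 passed an adjusted p of 0.05, which is 24.1% of those tested. Of these, 1729 rose and 2063 fell with MitoCoat, or 11% and 13.1% of the genes tested. The order of these counts turned with all 15 samples in the fit, which called 2264 genes higher and 2220 lower. Most changes were small, with a median log2 fold change of 0.58 among the genes that rose and -0.82 among those that fell, while the median over all genes tested was 0.01. Changes of more than 2-fold were found for 454 genes that rose (2.88%) and 821 that fell (5.21%), and of more than 4-fold for 180 and 222. The counts depended on single samples. Without MitoCoat replicate 2, 886 genes were called higher and 1269 lower. Without control replicate 2 and control replicate 3, 889 and 920 genes were called higher.

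**Figure D1:**
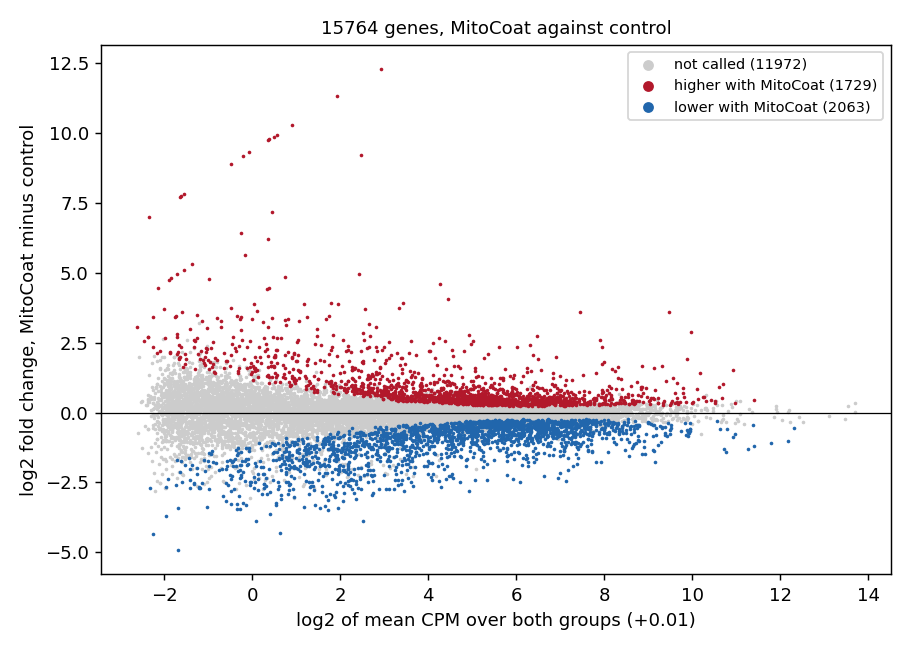
Each point is 1 of 15764 genes, with the log2 of its mean CPM over both groups on the x axis and the log2 fold change of MitoCoat minus control on the y axis. The 1729 red points are higher and the 2063 blue points lower with MitoCoat at an adjusted p under 0.05, and points above a log2 fold change of 5 lie at low or middle levels.

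The 2 groups did not overlap for 6554 genes, or 41.6% of those tested. For 6532 genes (41.4%) the 95% confidence interval of the fold change lay wholly within 1.5-fold in either direction. For 1250 genes (7.93%) it lay wholly beyond 1.5-fold. For the remaining genes the interval crossed 1.5-fold, so a change of that size was neither shown nor bounded at this number of samples.

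The distance between whole profiles gave the same order of groups in every sample. MitoCoat samples lay 48.0, 52.6 and 53.5 units from the mean of the controls on the variance-stabilized scale of DESeq2, with a mean of 51.4 ± 2.96 (SD, n = 3). H2O2 samples lay 32.4, 44.1 and 39.5 units away, with a mean of 38.7 ± 5.91 (SD, n = 3). Every MitoCoat sample was farther from the controls than every H2O2 sample. The difference of the means was 12.7 units, with p = 0.1 in a two-sided exact permutation test, which is the smallest p that 3 samples against 3 can give. Distances between MitoCoat and control samples averaged 55.9, against 30.6 within the groups, and the gap of 25.3 also had p = 0.1 in the exact permutation test. On the first principal component of the 500 most variable genes, which held 67.8% of the variance, controls ran from -19.4 to -13.7, H2O2 samples from -4.48 to 6.69 and MitoCoat samples from 10.2 to 15.4.

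**Figure D2:**
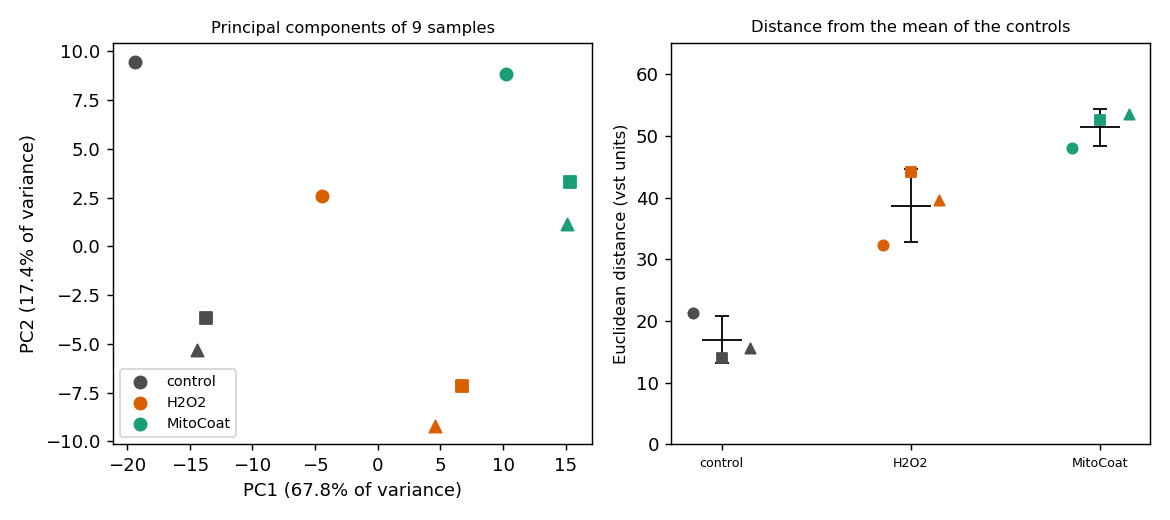
Left, the first 2 principal components of 9 samples (67.8% and 17.4% of the variance); right, the Euclidean distance of each sample from the mean of the 3 controls, with bars at the mean ± SD (n = 3). Circles, squares and triangles are replicates 1, 2 and 3, and MitoCoat samples lie at 48.0 to 53.5, beyond the H2O2 samples at 32.4 to 44.1.

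The 454 genes that rose by more than 2-fold were a small part of the RNA, and the 821 that fell a larger one in the controls. The 454 genes that rose held 1.05%, 0.989% and 0.945% of the normalized counts in the controls and 3.02%, 3.00% and 2.81% in the MitoCoat samples. The 821 genes that fell held 5.34%, 6.21% and 6.69% in the controls and 2.55%, 2.48% and 2.38% in the MitoCoat samples. These gaps between MitoCoat and control come from the choice of the genes, and they are a description.

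The samples that the choice did not use showed where other groups lay on the same genes. The genes that rose held 1.94% to 2.34% in the H2O2 samples, 2.79% to 2.91% with unmodified mitochondria and 2.25% to 2.48% with MitoCoat-mRNA. The genes that fell held 3.57% to 4.06%, 2.76% to 2.83% and 3.28% to 3.93% in the same groups. On both sets, samples with unmodified mitochondria lay nearest to the MitoCoat samples. Of the genes that rose, 395 were tested in all comparisons, with a median log2 fold change of 1.62 for MitoCoat minus control, 0.95 for H2O2 minus control and 0.64 for MitoCoat minus H2O2. Of the genes that fell, 782 were tested in all comparisons, and the same medians were -1.49, -0.99 and -0.57. These comparisons share samples with each other, so the medians are given side by side only. Genes chosen for a gap between MitoCoat and control tend to place other groups between them, so these positions are a description.

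**Figure D3:**
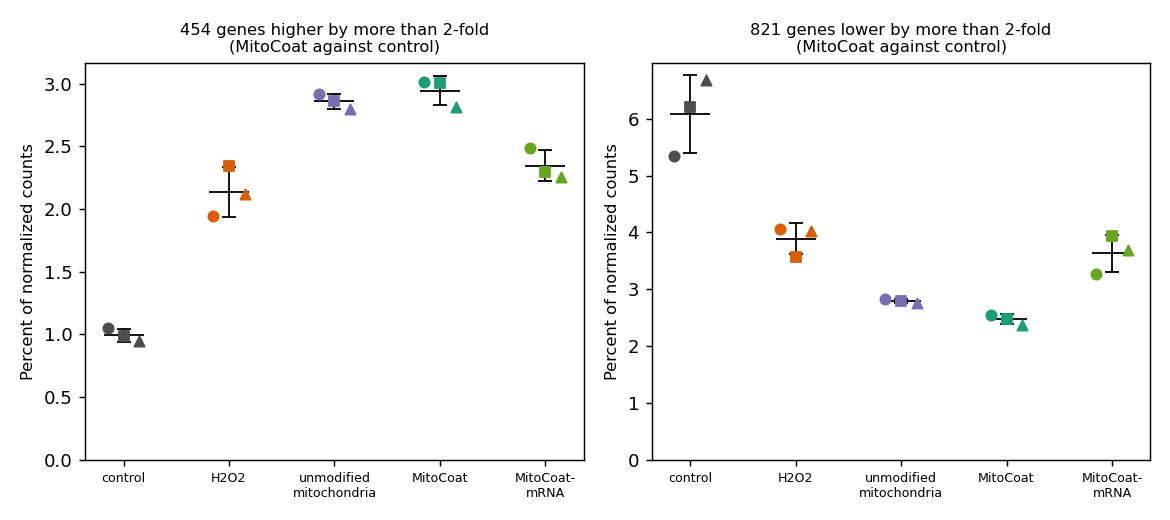
Percent of normalized counts on the 454 genes that were more than 2-fold higher (left) and the 821 that were more than 2-fold lower (right) with MitoCoat than in control, for each of 15 samples in 5 groups, with bars at the mean ± SD (n = 3). Circles, squares and triangles are replicates 1, 2 and 3. H2O2 samples lie between control and MitoCoat in both panels (1.94% to 2.34% and 3.57% to 4.06%), a position that the choice of the genes favours.

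Set against stressed cells without treatment, MitoCoat samples differed in fewer genes. Of 15724 genes tested, 231 were higher and 248 lower with MitoCoat than with H2O2 alone by edgeR's quasi-likelihood test, or 1.47% and 1.58%, together 3.05%. H2O2 against control gave 465 higher and 660 lower of 15650, or 2.97% and 4.22%, together 7.19%. The count against H2O2 moved by more than 1.5 times in both directions. It was 408 higher and 492 lower with DESeq2, 439 and 465 with all 15 samples in the fit, and 394 and 530 with the replicate number as a block. It was 136 higher and 125 lower without H2O2 replicate 1, 117 and 105 without H2O2 replicate 3, 144 and 161 without MitoCoat replicate 1, and 110 and 91 without MitoCoat replicate 2.

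The abundant genes that gained or lost the most RNA were picked by the size of their change in CPM after the values had been seen. The 10 genes with the largest gain, each of which gained 617 to 1874 CPM, held 0.777%, 0.820% and 0.809% of the normalized counts in the controls and 1.92%, 1.94% and 1.80% with MitoCoat. Of these 10, 8 passed the test for H2O2 against control and 1 that for MitoCoat against H2O2, beside 7.19% and 3.05% of all genes tested. The 10 genes with the largest loss, each of which lost 849 to 3221 CPM, held 3.17%, 3.87% and 4.20% in the controls and 2.01%, 1.99% and 1.81% with MitoCoat. Of these 10, 2 passed the test for H2O2 against control and 6 that for MitoCoat against H2O2. Whether gains and losses differ in this respect was not tested. All of these genes were picked by MitoCoat against control. Both tests share samples with that comparison, so shares above those of all genes follow in part from the choice.

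The largest gain was that of a gene at chr19:38422164-38437180. It was at 1003, 1235 and 796 CPM in the controls, at 2605, 2971 and 2239 CPM with H2O2 and at 3160, 3078 and 2420 CPM with MitoCoat. Its log2 fold change of MitoCoat minus control was 1.52 (SE 0.170, adjusted p = 0.000444). All 6 stressed samples lay above the controls, and the H2O2 and MitoCoat samples overlapped, with a log2 difference of 0.15 between them (adjusted p = 0.723).

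A gene on the same chromosome, at chr19:14508616-14515456, showed another order of the groups. It was at 241, 227 and 263 CPM in the controls, at 410, 515 and 490 CPM with H2O2 and at 1679, 1877 and 1745 CPM with MitoCoat. The log2 fold change was 2.87 against control (SE 0.103, adjusted p = 7.59e-06) and 1.91 against H2O2 (adjusted p = 6.26e-05). No group overlapped another in these 9 samples. In the remaining groups it stood at 1435 ± 50.1 CPM with unmodified mitochondria and at 462 ± 35.9 CPM with MitoCoat-mRNA (SD, n = 3 each).

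The largest loss was that of a gene at chr10:90990762-90999506. It was at 5553, 6015 and 7176 CPM in the controls, at 4413, 4266 and 5357 CPM with H2O2 and at 2913, 3012 and 3154 CPM with MitoCoat. The log2 fold change was -1.04 against control (SE 0.119, adjusted p = 0.000496) and -0.62 against H2O2 (adjusted p = 0.0166). Levels stepped down from control to H2O2 to MitoCoat without overlap, although H2O2 against control did not pass the test (adjusted p = 0.122). The gene stood at 3446 ± 157 CPM with unmodified mitochondria and at 4148 ± 452 CPM with MitoCoat-mRNA (SD, n = 3 each).

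A gene at chr1:21851660-21854773 fell with MitoCoat from a level at which H2O2 samples overlapped the controls. It was at 2102, 2661 and 2794 CPM in the controls, at 2729, 3090 and 3099 CPM with H2O2 and at 715, 887 and 1232 CPM with MitoCoat. The log2 fold change was -1.40 against control (SE 0.198, adjusted p = 0.00133) and -1.65 against H2O2 (adjusted p = 0.00212). It stood at 963 ± 166 CPM with unmodified mitochondria and at 3017 ± 235 CPM with MitoCoat-mRNA (SD, n = 3 each).

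Among genes with a mean of at least 1 CPM, an adjusted p under 0.05 and no overlap between the groups, the 10 largest rises and the 10 largest falls by fold change were located in the genome. The rises had log2 fold changes of 6.20 to 12.30, and 6 of them were on chromosome 17 and 3 on chromosome 1. No read was counted on 7 of the 10 in any control, and the other 3 averaged 0.0146 to 0.0327 CPM there, so that all 10 reached the mean of 1 CPM and edgeR's filter through the MitoCoat samples alone and had to differ. The falls had log2 fold changes of -3.30 to -4.32 and lay on 7 chromosomes, with 3 on chromosome 4 and 2 on chromosome 7. Rises and falls were not tested for a difference in location.

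The largest rise was that of ENSRNOG00000039975 (chr17:4165041-4167411, plus strand, 703 exonic bases). It had 0 counts in each control and each H2O2 sample and 1103, 664 and 146 counts with MitoCoat, or 25.5, 16.2 and 3.60 CPM. Against the limit of 3 counts over the 3 controls, it was at least 644-fold higher, and at least 417-fold higher without MitoCoat replicate 1. Replicate 3 alone was at least 151-fold higher. The fitted log2 fold change of 12.30 (SE 1.42, adjusted p = 0.00131) rests on the prior count that edgeR adds. The 3 MitoCoat samples differed from each other by far more than their depth did, and replicate 3 was the lowest.

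ENSRNOG00000016871 (chr17:39188311-39463715, 2314 exonic bases) came next. It had 0 counts in the 3 controls and the 3 H2O2 samples and 561, 344 and 64 counts with MitoCoat, at least 326-fold higher than control (adjusted p = 0.00214). Without MitoCoat replicate 1 the bound was 210-fold, and for replicate 3 alone 66.4-fold. Its model overlaps 3 other annotated genes, so that reads may have been split or lost between them.

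The largest fall was that of ENSRNOG00000007354 (chr5:3783247-3836485, plus strand, 3378 exonic bases). It was at 2.24, 2.45 and 4.12 CPM in the controls, at 1.28, 0.502 and 1.55 CPM with H2O2 and at 0.185, 0.146 and 0.0987 CPM with MitoCoat. The log2 fold change was -4.32 against control (SE 0.426, adjusted p = 0.000258). With 8, 6 and 4 counts in the MitoCoat samples, the gene passed edgeR's filter through the controls alone, so a gene of this kind had to differ. Against H2O2 the log2 fold change was -2.92 (adjusted p = 0.0286). With 46, 20 and 63 counts in the H2O2 samples, the gene passed that filter through the H2O2 samples alone, so this call has the same limit. The call was lost in 5 of 13 alternative fits, with adjusted p-values from 0.00109 to 0.151. The log2 fold change stayed between -3.26 and -2.61. The groups followed each other without overlap.

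ENSRNOG00000015719 (chr4:117293620-117296082, minus strand, 2148 exonic bases) was low in the H2O2 and the MitoCoat samples. It was at 1.81, 1.72 and 2.37 CPM in the controls, at 0.167, 0.151 and 0.148 CPM with H2O2 and at 0.0925, 0.195 and 0.0987 CPM with MitoCoat. The log2 fold change was -3.90 against control (SE 0.437, adjusted p = 0.00045). With 4, 8 and 4 counts in the MitoCoat samples, it too passed the filter through the controls alone. H2O2 and MitoCoat samples overlapped, with 4 to 8 counts in each of them. It stood at 0.364 ± 0.136 CPM with unmodified mitochondria and at 0.382 ± 0.146 CPM with MitoCoat-mRNA (SD, n = 3 each).

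A group of genes had reads in every MitoCoat sample and none in the controls. The rule asked for at least 5 counts in each sample of 1 group and 0 counts in each sample of the other. By it, 27 genes were seen with MitoCoat and not in control, and 5 in control and not with MitoCoat. The numbers were 116 and 63 at a minimum of 1 count, and 14 and 0 at 10 counts. Of the 27 genes, 14 passed edgeR's filter on low counts, which they could do through the MitoCoat samples alone, and their calls follow from the choice. Of all 27, 4 were under 200 bases long and 18 had 0 counts in every H2O2 sample too. None of the 5 passed edgeR's filter, and DESeq2 tested and called 1 of them. The 27 genes summed to 83.6, 60.0 and 15.8 CPM with MitoCoat and to 1.34, 1.10 and 0.395 CPM with H2O2, without overlap, which is a description since the genes were chosen for their counts with MitoCoat. The highest of the 27 in any sample reached 25.5 CPM, so these genes were a small part of the RNA. Without control replicate 1, without MitoCoat replicate 2 and without MitoCoat replicate 3, the number of genes was 49, 44 and 44. In the reverse direction, leaving out any 1 of the 6 samples gave 8 to 17 genes. The most were found without control replicate 2 (17), MitoCoat replicate 3 (15) and control replicate 3 (14). Leaving out a sample drops a condition of the rule, so in both directions the numbers could only stay or rise.

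The levels of these genes differed between MitoCoat samples in a common order. MitoCoat replicate 1 was the highest for 18 of the 27 genes and replicate 3 the lowest for 21. The same genes stood at 23.6, 22.8 and 6.17 CPM in the 3 samples with unmodified mitochondria, and at 0.797, 0.926 and 0.617 CPM with MitoCoat-mRNA. The samples with MitoCoat and with unmodified mitochondria overlapped. RNA brought by the placental fraction and RNA made by the astrocytes cannot be told apart in these libraries.

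Of the 27 genes, 15 lay in 3 stretches of the genome. At chr1:79122608-79481865, 4 genes summed to 13.3, 8.15 and 3.23 CPM with MitoCoat and had 0 counts in all 3 H2O2 samples. At chr17:3820606-4167411, 5 genes summed to 31.9, 22.1 and 4.29 CPM with MitoCoat, again with 0 counts in all H2O2 samples. This stretch holds ENSRNOG00000039975. At chr17:38710432-39575720, 6 genes summed to 28.0, 19.7 and 3.75 CPM with MitoCoat and had 2, 4 and 4 counts in the H2O2 samples. This stretch holds ENSRNOG00000016871. The 12 genes outside these stretches summed to 10.5, 10.0 and 4.52 CPM with MitoCoat and to 1.28, 1.00 and 0.296 CPM with H2O2.

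**Figure D4:**
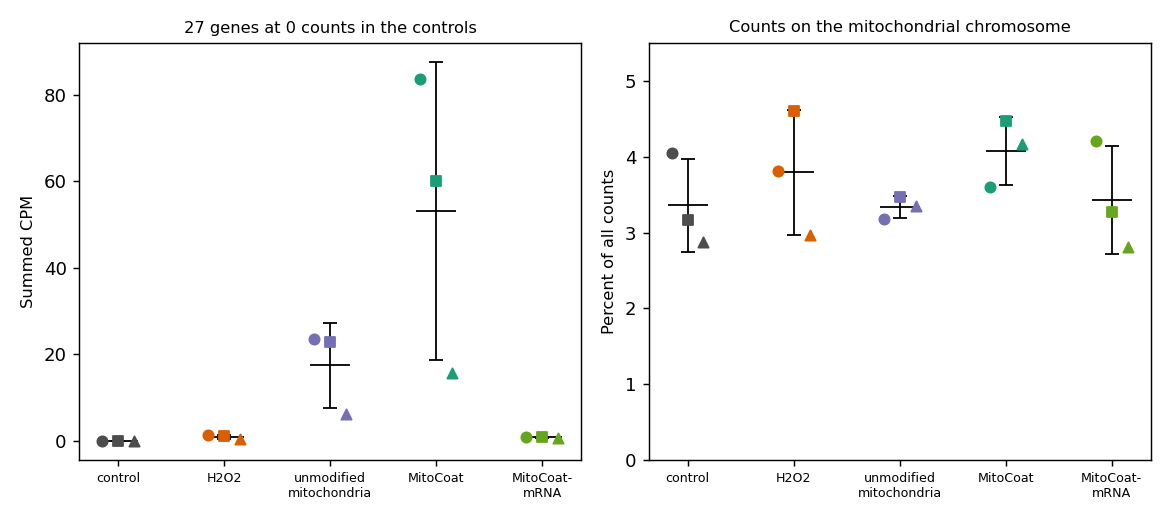
Left, summed CPM of the 27 genes that had at least 5 counts in every MitoCoat sample and 0 in every control; right, the percent of all counts on the mitochondrial chromosome, for 15 samples in 5 groups with bars at the mean ± SD (n = 3). Circles, squares and triangles are replicates 1, 2 and 3; MitoCoat samples reach 83.6, 60.0 and 15.8 CPM on the left, while on the right the groups overlap.

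Genes of the mitochondrial genome took 4.05%, 3.16% and 2.87% of all counts in the controls and 3.60%, 4.48% and 4.17% with MitoCoat. The means were 3.36% ± 0.61 and 4.08% ± 0.445 (SD, n = 3 each), and the groups overlapped (p = 0.2, two-sided exact permutation test). H2O2 samples held 3.79% ± 0.82, samples with unmodified mitochondria 3.33% ± 0.146 and those with MitoCoat-mRNA 3.43% ± 0.711 (SD, n = 3 each). Astrocytic and applied mitochondria are both of rat, and their transcripts cannot be told apart by these counts.

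All 13 listed mitochondrial features longer than 200 bases had a log2 fold change above 0 for MitoCoat minus control, from 0.03 to 0.53 with a median of 0.23. Of the 13, 2 passed the test against control by edgeR and were higher, beside 11% of all genes tested. The feature at MT:3904-4942 was at 1679, 1287 and 1082 CPM in the controls and at 1747, 2119 and 1904 CPM with MitoCoat (log2 fold change 0.52, SE 0.161, adjusted p = 0.0441). The feature at MT:10160-11537 was at 181, 145 and 116 CPM in the controls and at 196, 235 and 205 CPM with MitoCoat (0.53 on the log2 scale, SE 0.154, adjusted p = 0.0344). In both, the lowest MitoCoat sample lay just above the highest control. The most abundant feature, at MT:5323-6867, went from 11616 to 14711 CPM on average and did not pass (log2 fold change 0.35, adjusted p = 0.0997).

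The number of these features called was not stable. It was 5 without control replicate 1, 0 with all 15 samples in the fit and 0 without control replicate 2, control replicate 3, MitoCoat replicate 2 or MitoCoat replicate 3. Against H2O2, 0 of the 13 were called by edgeR's test or by DESeq2, 0 had an unadjusted p under 0.05, and the median log2 difference was 0.05. Of 22 features of 200 bases or less, the length of transfer RNAs, 15 could be tested and 3 rose against control, beside the same 11% of all genes. Their summed mean level was 78.2 CPM in the controls and 134 CPM with MitoCoat. The median log2 difference of those tested was 0.62 for MitoCoat minus control. It was 0.74 for H2O2 minus control and 0.10 for MitoCoat minus H2O2. Against H2O2, 0 of them were called by edgeR, beside 3.05% of all genes tested. The label gives the RNA as polyA RNA, a form that transfer RNAs do not usually have.

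Called genes also lay beside each other in the genome. Runs of at least 5 neighbouring tested genes called in the same direction were found 7 times, 5 of them higher with 29 genes and 2 lower with 11 genes. On chromosome 12, 5 genes at chr12:22641104-22732943 rose with log2 fold changes of 0.46 to 3.59. They summed to 578, 618 and 731 CPM in the controls, to 1314, 1856 and 2104 CPM with H2O2 and to 2429, 2283 and 2534 CPM with MitoCoat. Samples with unmodified mitochondria held 2327 to 2457 CPM, overlapping MitoCoat. The first gene of the run (chr12:22641104-22651482) accounted for most of the gain, from 110 CPM on average in the controls through 770 CPM with H2O2 to 1315 CPM with MitoCoat (log2 fold change 3.59 against control, SE 0.156, adjusted p = 8.86e-06). Of the 5 genes, 4 passed the test for H2O2 against control and 0 that for MitoCoat against H2O2 by edgeR (1 at an unadjusted p under 0.05 and 1 by DESeq2). Over all genes tested, 7.19% and 3.05% passed these tests. The genes of all 7 runs were chosen by their calls for MitoCoat against control. Both tests share samples with that comparison, so passing more often than all genes follows in part from the choice.

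On chromosome 2, 5 genes at chr2:248178389-248409570 rose with log2 fold changes of 1.04 to 3.24. They summed to 176, 128 and 115 CPM in the controls, to 242, 294 and 281 CPM with H2O2 and to 403, 424 and 588 CPM with MitoCoat. These 3 groups did not overlap. Of the 5 genes, 2 passed the test for H2O2 against control and 4 that for MitoCoat against H2O2. Over all genes the shares were 7.19% and 3.05%, with the same limit of shared samples. Samples with unmodified mitochondria held 406 to 815 CPM, overlapping MitoCoat. The other rising runs were 7 genes at chr4:62380914-62790422 (199 ± 1.73 CPM in control and 281 ± 6.67 with MitoCoat), 5 genes at chr8:55279373-55631446 (96.4 ± 0.592 and 138 ± 19.3 CPM) and 7 genes at chr17:38710432-39575720, the stretch described above (SD, n = 3 each). In this last run 6 of the 7 genes had 0 counts in every control and the other averaged 0.0146 CPM there. All 7 passed edgeR's filter through the MitoCoat samples alone, so their calls follow from the filter. H2O2 samples held 275 ± 5.94 CPM of the run on chromosome 4, which overlapped the MitoCoat samples, and 106 ± 4.46 CPM of the rising run on chromosome 8 (SD, n = 3 each). For H2O2 against control, 4 of 7 and 2 of 5 genes of these runs passed, and for MitoCoat against H2O2 1 of 7 and 1 of 5.

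The 2 falling runs lay on chromosomes 13 and 8. At chr13:50749514-51076852, 6 genes fell with log2 fold changes of -0.64 to -2.28. They summed to 1012, 1164 and 1273 CPM in the controls, to 632, 636 and 687 CPM with H2O2 and to 446, 529 and 532 CPM with MitoCoat. At chr8:99880073-103190243, 5 genes summed to 668, 873 and 996 CPM in the controls, to 539, 480 and 625 CPM with H2O2 and to 404, 372 and 332 CPM with MitoCoat. In both runs the MitoCoat samples were the lowest of the 9. Samples with unmodified mitochondria held 518 to 592 CPM of the first run and 400 to 418 CPM of the second, overlapping MitoCoat in both. Of the genes of these runs, 0 of 6 and 2 of 5 passed the test against H2O2 by edgeR. Of the 6, 4 had an unadjusted p under 0.05 and 2 were called by DESeq2. Over all 15724 genes tested against H2O2, 3.05% passed and 2345 had an unadjusted p under 0.05. For H2O2 against control, 5 of 6 and 2 of 5 passed, beside 7.19% of all genes. Here too the tests share samples with the choice of the runs.

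The number of runs differed between alternatives. It was 3 without control replicate 2, control replicate 3 or MitoCoat replicate 2, and 11 without MitoCoat replicate 3. It was 4 with DESeq2 or when every gene with a count was tested, 12 with a filter of at least 10 counts in every sample and 16 with all 15 samples in the fit. Genes that overlap another annotated gene, in the run or outside it, can share reads, and this applied to 2 genes of the run on chromosome 12, to 3 each of those on chromosomes 4 and 17, and to 1 of the falling run on chromosome 8.

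**Figure D5:**
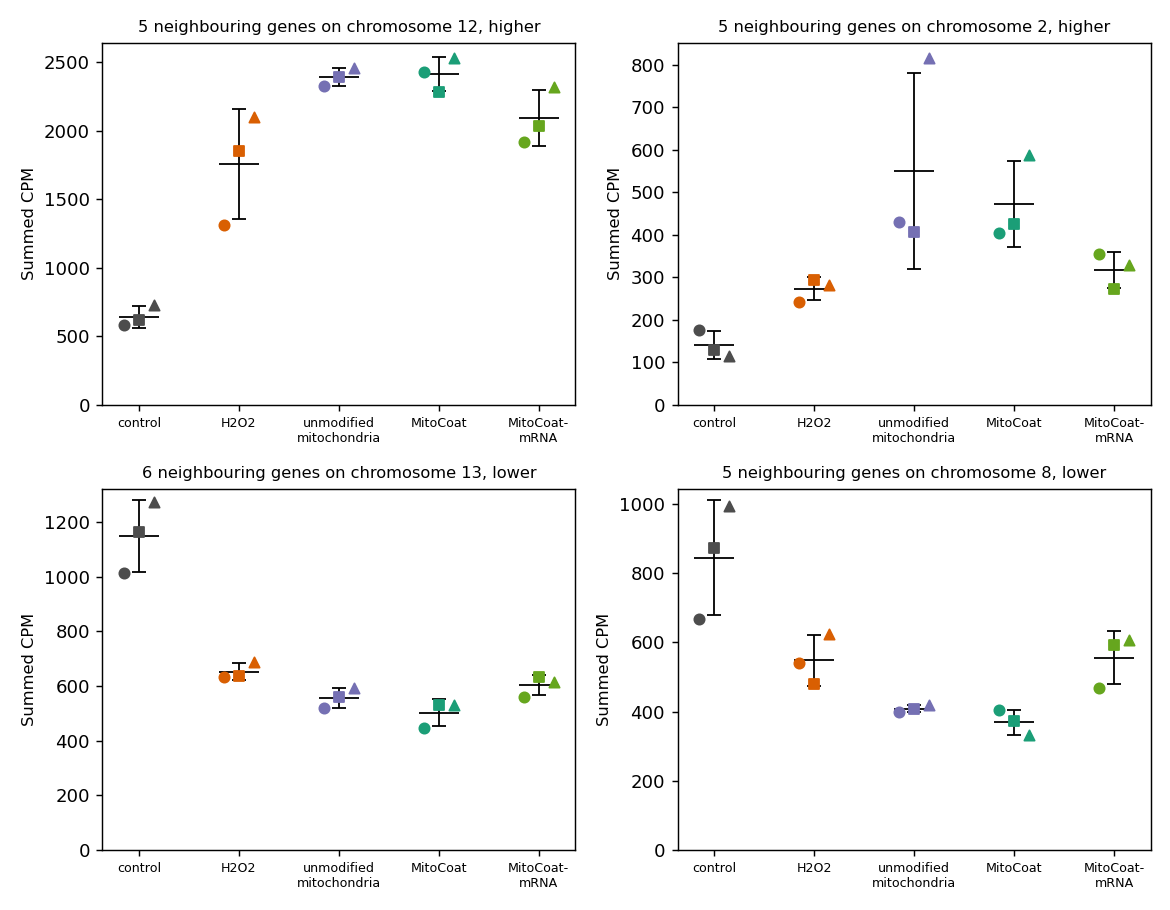
Summed CPM of 4 runs of neighbouring genes called in the same direction, for 15 samples in 5 groups with bars at the mean ± SD (n = 3). Circles, squares and triangles are replicates 1, 2 and 3; in the rising runs on chromosomes 12 and 2 all MitoCoat samples lie above all control and H2O2 samples, and in the falling runs on chromosomes 13 and 8 below them.

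Calls were spread over the nuclear genome. Among chromosomes 1 to 20 and X, the share of tested genes called ran from 20.4% on chromosome 17 to 27.5% on chromosome 13, against 24.1% over all genes. The share rose with the level of the gene, from 8.23% at up to 1 CPM through 22.6% and 26.6% to 36.1% above 100 CPM. The median size of a called change fell over the same classes from 2.28 to 0.52 on the log2 scale.

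The direction of change moved with gene length. In the quintile of genes with the shortest exonic length (42 to 1218 bases), 11.2% were called higher and 6.34% lower, with a median log2 fold change of 0.13. In the quintile with the longest (3951 to 29464 bases), 8.63% were called higher and 19.5% lower, with a median of -0.09. Called genes that rose had a median exonic length of 2043 bases and those that fell of 2904, against 2260 over all genes tested. The difference between the longest and the shortest quintile was -0.120 to 0.0835 (log2) in the control samples, -0.301 to -0.0856 with MitoCoat and -0.325 to 0.0702 with H2O2, and control and MitoCoat samples overlapped. When the trend of each sample with length was removed, an alternative added after the data had been seen, 1887 genes were called higher and 2043 lower.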

How the data were processed

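RNA of rat cortical astrocytes, labelled as polyA RNA, was profiled in 15 samples in 5 groups of 3. The authors used Trimmomatic 0.36 for trimming, STAR 2.5.2b for alignment to Rnor6.0 (Ensembl annotation) and featureCounts (Subread 1.5.2) to count uniquely mapped reads over exons. Raw counts per gene were deposited, with no normalization. In each sample, 63.5% to 68.9% of counts above 0 were even, so mates of read pairs may have been counted separately. Limits from a count of 0 (3 counts over the group) cover counting error only and may then be too narrow. 1 further column of counts, tied to no sample of its own, was not used here. Total counts ranged from 35315654 to 46778663.

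Each comparison was fitted on its own 6 samples with edgeR 4.0.16 in R 4.3.3 (filterByExpr, TMM, quasi-likelihood F test). A gene was called when its p, adjusted by Benjamini-Hochberg, was under 0.05. The study used DESeq2, which was an alternative here (1.42.0) and gave the variance-stabilized values for distances. CPM used TMM library sizes over all 15 samples. Distances and shares were compared by exact permutation tests. Runs were at least 5 consecutive tested genes, and stretches at least 4 genes with gaps of up to 1000000 bases. The test was checked on simulated data. Figures were drawn with matplotlib 3.10.9.

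The genes named are the 2 that rose and the 2 that fell the most by fold change among called genes whose groups did not overlap and whose mean reached 1 CPM. Loci with the largest gain or loss of CPM were added after their values had been seen. The samples compared, the lists and the tests were chosen with earlier results of these data known. Identifiers could not be paired with symbols, so the planned gene lists, cell type markers, summed placental genes and promoter motifs were not analysed here, and no sequence is shown. Alternatives were DESeq2, all 15 samples in 1 fit, RLE normalization, other filters, the replicate block, length correction and each sample left out.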

Additional observations from a re-analysis of the deposited data

Results flagged for a closer look

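The 27 genes with reads in every MitoCoat sample and 0 counts in every control were also seen in groups outside the comparison. The samples with unmodified mitochondria held 23.6, 22.8 and 6.17 CPM of them in replicates 1, 2 and 3. The MitoCoat-mRNA samples held 0.797, 0.926 and 0.617 CPM, within the 0.395 to 1.34 CPM of the H2O2 samples. All of these lie above the control samples, which are at 0 by the choice of the genes.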

How the results depend on the processing

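For MitoCoat against control, leaving out 1 sample gave 886 to 1814 genes higher and 1269 to 2268 lower, and every other alternative stayed within 1.5 times the reported counts. With all 15 samples in the fit, 2264 genes were higher and 2220 lower, which turned the order of the counts. For MitoCoat against H2O2, the counts higher and lower were 408 and 492 with DESeq2, 439 and 465 with all 15 samples in the fit, and 110 to 219 and 91 to 228 on leaving out 1 sample. The cause was not tested. With the replicate block they were 394 and 530, and 405 and 462 with the block and the length correction. Against control the block gave 1257 higher and 1917 lower. Same-numbered samples are not stated to share a culture. Their deviations from the group means correlated at 0.03 to 0.12 between control and MitoCoat and at -0.01 to 0.31 between H2O2 and MitoCoat. Samples of different numbers correlated at -0.12 to 0.04 and at -0.25 to 0.04. The numbers were not taken to pair the samples in the main fit, but a pairing was not excluded. The called mitochondrial features longer than 200 bases were 1 with the block and 0 with all 15 samples in the fit. Genes seen with MitoCoat and not in control numbered 116 at a minimum of 1 count, 14 at 10 counts and 39 to 49 on leaving out 1 sample. In the reverse direction they numbered 63, 0 and 8 to 17. Leaving out a sample could only keep or raise these numbers. The distances and the mitochondrial share kept their direction, and the 4 named genes their call against control, in every alternative that gave a value. The filter of 10 counts in every sample removed all 4 named genes and gave none. The difference in mitochondrial share was 0.477 to 1.06 percentage points on leaving out 1 sample, against 0.72. With 3 samples a group, the exact tests cannot go below p = 0.1. The summed placental genes and their alternatives were not run, since identifiers could not be paired with symbols.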
